A study of Mus musculus with 15 samples.

Results

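The change in the wild-type mouse liver over birth was measured on 7 of the 15 arrays of the study, chosen by their titles: 3 livers from late fetuses (embryonic age E19.5) taken by caesarean section and 4 livers from newborns on postnatal day 0 (P0) after natural delivery. All 7 animals were of the C57BL/6J strain and were wild-type littermates of mice that lack the maternal copy of a microRNA cluster (miR-379/miR-410), and the sources used here give no treatment, sex or hour of collection for any of them. The knockout livers, 3 at E19.5 and 5 at P0, entered the fit only to share an estimate of the spread and are given beside the wild type where that matters. Total RNA of whole liver was labelled with Cy3 and hybridised to Agilent 1-colour arrays, 1 sample per array, and the arrays lay on 3 slides. The labels number the samples as replicates and do not say that each came from another litter, so the p-values measure the spread between these samples.

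Before birth the liver receives glucose and amino acids through the placenta, stores glycogen, makes fat and cholesterol, and still houses blood formation. After birth the cord supply ends, insulin falls, glucagon rises, and the newborn lives on glycogen, on glucose made from amino acids, lactate and glycerol, and on the fat of milk. The transcription factors SREBP-1c and SREBP-2 drive the genes of fat and cholesterol synthesis, PPARA drives those of fatty acid use, and hypoxia-inducible factors drive genes that serve cells in low oxygen.

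A level is log2 of a probe's processed signal minus the 75th percentile of its array, so that 0 is the 75th percentile, and a difference is P0 minus E19.5 on that log2 scale. Of 22638 gene names tested, 4301 passed an adjusted p of 0.05, which is 19% of them; 1890 were higher at P0 (8.35%) and 2411 lower (10.7%). At least 2-fold differences were found for 516 higher and 603 lower genes. The shares of 8.35% and 10.7% are the background for all counts of list members below. In 4046 of the 4301 genes that passed, the E19.5 and P0 values did not overlap. Passing and not overlapping rest on the same values, so this count is no separate evidence of a change. The P0 arrays were brighter: the 75th percentile itself was 8.54, 8.44 and 8.57 (log2 signal) on the E19.5 arrays and 9.36, 9.23, 9.55 and 9.61 on the P0 arrays, a difference of 0.92 with no overlap (exact permutation test, two-sided, p = 0.0286, the smallest that 3 against 4 allows). Brightness and age cannot be told apart in these 7 arrays, and with brightness as a covariate 0 genes passed with limma, while 2209 had an unadjusted p under 0.05. On slide 2, which held E19.5 arrays 2 and 3 and P0 arrays 1 and 2, 1169 genes passed. Fits on slide 2 also held knockout E19.5 arrays 2 and 3 and knockout P0 arrays 1 and 2, which shared in the estimate of the spread.

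Genes of fat and cholesterol synthesis had the lowest medians of the 63 gene lists examined. Of 25 measured genes of cholesterol synthesis and uptake, 24 were lower at P0 and none higher, with a median difference of -2.09 against -0.02 over all genes tested. Of 18 genes of fatty acid synthesis, 13 were lower and none higher, with a median of -1.53. Within slide 2 the medians were -1.94 and -1.28, with 24 and 13 members lower, and without P0 arrays 3 and 4 they were -1.87 and -1.19.

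Fasn, the synthase that builds palmitate, stood at 1.49, 1.63 and 2.03 on the E19.5 arrays and at -1.62, -1.51, -2.18 and -2.23 on the P0 arrays. Every P0 liver lay below every fetal liver, and the fall was 12.1-fold (difference -3.60 ± 0.20 SE, adjusted p = 5.86e-07, probe at chr11:120667666-120667725 of mm9). Srebf1, which encodes SREBP-1, had 0.13, 0.15 and 0.25 at E19.5 and -2.49, -2.40, -2.63 and -2.88 at P0, a difference of -2.78 ± 0.17 (adjusted p = 8.92e-07). Its 4 newborn values spread over less than the gap to the fetal ones. Acly, which makes cytosolic acetyl-CoA from citrate, differed by -2.20 ± 0.13 (adjusted p = 5.86e-07), and Elovl6, a fatty acid elongase, by -2.43 ± 0.14 (adjusted p = 5.86e-07). Acss2, which makes acetyl-CoA from acetate, fell from a mean of 4.22 to 1.08.

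The desaturase genes and Thrsp, a lipogenic nuclear protein, fell on all P0 arrays but by unequal amounts. Scd1 read 4.59, 4.73 and 4.96 at E19.5 and 3.05, 2.04, 0.15 and -0.19 at P0. Thrsp read 2.24, 2.25 and 2.88 at E19.5 and -0.52, -0.70, -3.79 and -4.19 at P0. In both, P0 arrays 3 and 4, which shared slide 3, were the lower pair. The differences were -3.50 ± 0.59 for Scd1 (adjusted p = 0.00165) and -4.76 ± 0.85 for Thrsp (adjusted p = 0.00234), and on slide 2 alone they were -2.30 and -3.18. Scd2, the desaturase of fetal tissues, fell by 3.59 ± 0.24, with P0 values from 2.43 to 3.45 against 6.52 to 6.64 at E19.5. Pnpla5, a lipase, was above background on the 3 E19.5 arrays and on 0 of the 4 P0 arrays, and was at least 6.204-fold lower at P0. That bound sets the mean of the group above background against the faintest signal above background, or the probe's own signal if higher, on each array of the other group.

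In the cholesterol pathway the members that fell were enzymes and regulators of SREBP. Insig1, the sterol-regulated anchor that holds SREBP in the endoplasmic reticulum, had 2.55, 2.75 and 2.93 at E19.5 and -0.82, -0.10, -0.76 and -1.50 at P0. The groups were far apart, and the difference was -3.54 ± 0.27 (11.7-fold, adjusted p = 5.87e-06, probe at chr5:28404246-28404305). Lss, which closes the sterol rings, had 3.45, 3.56 and 3.80 at E19.5 and 0.80, 0.80, 0.85 and 0.48 at P0, a difference of -2.87 ± 0.22 (adjusted p = 5.44e-06). Mvd, the mevalonate pyrophosphate decarboxylase, differed by -2.77 ± 0.18 and Idi1, the isopentenyl pyrophosphate isomerase, by -2.28 ± 0.15. Sqle, the squalene epoxidase, went from 5.02, 5.31 and 5.29 to 2.95, 3.29, 3.11 and 3.10 (difference -2.09 ± 0.11, adjusted p = 5.86e-07). These 4 enzymes also fell within slide 2, by 2.88 for Lss, 2.59 for Mvd, 2.57 for Idi1 and 2.18 for Sqle.

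**Figure D1:**
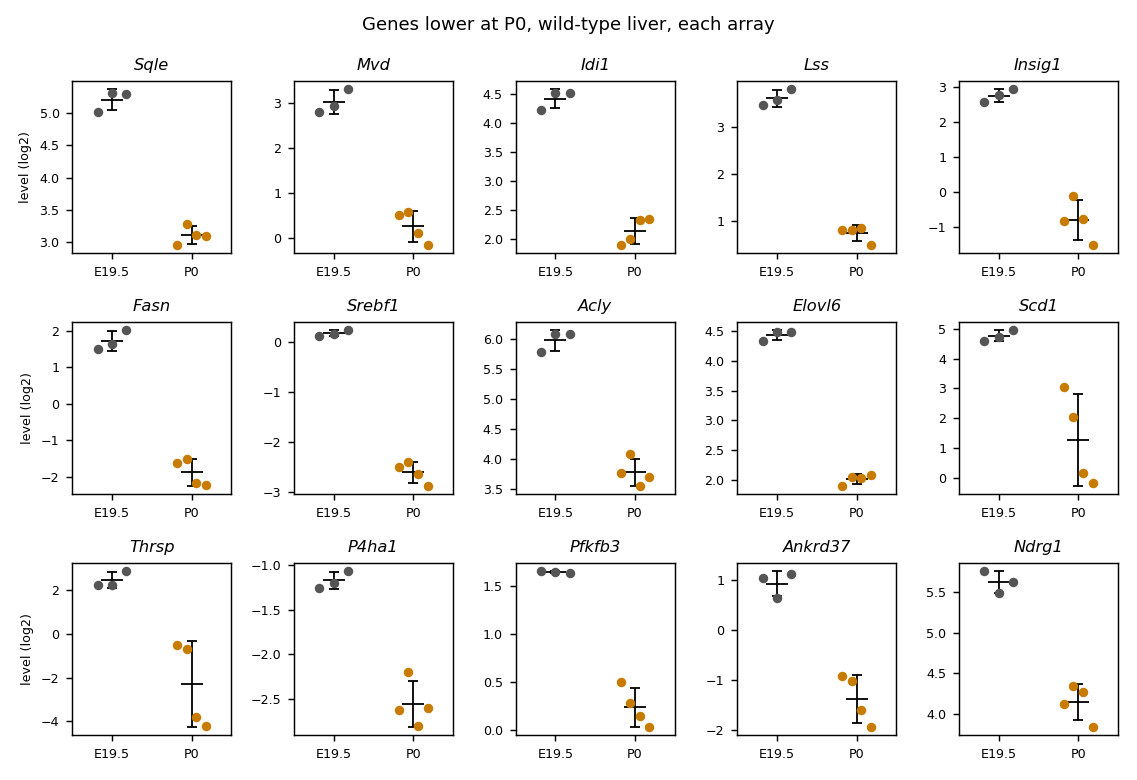
Level (log2, relative to the 75th percentile of the array) of 15 genes lower at P0 on each wild-type array; grey points are the 3 E19.5 livers, orange points the 4 P0 livers in array order, and bars give the mean and SD. The genes shown were picked among those that passed, and their groups do not overlap, as in 4046 of the 4301 that passed. In Scd1 and Thrsp the P0 livers split into an upper and a lower pair.

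The promoters of the cholesterol genes are shown because 24 members moved in the same direction. Sequences are from RefSeq on GRCm38.p6, which held 17 of the 25 members under their current symbols, and 250 bases before each gene's start were searched on both strands. A CCAAT box (CCAAT or its complement ATTGG) was found in 16 of the 17, against 39.5% of the 12877 tested genes with a promoter in the table, and a GC box (GGGCGG) in 16 of 17, against 56.3%. The letters TCACNCCAC of a sterol regulatory element were found in 1 of 17, Hmgcs1, against 1.23%; Hmgcs1, the synthase at the start of the pathway, is shown for that match. Capitals mark CCAAT or ATTGG and, in Hmgcs1, also TCACCCCAC. The stretches end at the base before the start and are Hmgcs1 at chr13:119690201-119690350 (plus strand), Idi1 at chr13:8885506-8885605 (plus), Lss at chr10:76531505-76531604 (plus) and Mvd at chr8:122443423-122443522 (minus).
Hmgcs1: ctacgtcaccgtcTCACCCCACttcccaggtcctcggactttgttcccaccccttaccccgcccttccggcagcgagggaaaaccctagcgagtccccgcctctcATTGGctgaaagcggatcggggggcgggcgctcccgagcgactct
Idi1: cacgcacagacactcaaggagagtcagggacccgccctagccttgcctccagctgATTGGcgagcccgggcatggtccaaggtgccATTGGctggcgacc
Lss: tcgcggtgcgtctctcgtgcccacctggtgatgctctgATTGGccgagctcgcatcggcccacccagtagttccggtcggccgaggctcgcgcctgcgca
Mvd: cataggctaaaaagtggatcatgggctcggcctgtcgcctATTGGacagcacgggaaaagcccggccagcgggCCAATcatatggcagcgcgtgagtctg
A match is a description of these letters and not a measured binding site.

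Genes of glycolysis and glycogen metabolism that passed were lower at P0, and gluconeogenic genes that passed were higher. Of 22 genes of glycolysis and glucose uptake, 8 were lower and none higher (median -0.40), and of 16 genes of glycogen metabolism 4 were lower and none higher (median -0.23). Within slide 2 glycolysis had 2 members lower and a median of -0.12, and glycogen metabolism 1 member lower. Without E19.5 array 1 or 3 or P0 array 3, glycogen metabolism had 2 lower. Aldoc, an aldolase, fell by 1.78 ± 0.34, with P0 values of 4.47, 4.62, 3.04 and 3.07 against 5.50 to 5.67. Pgam1, a phosphoglycerate mutase, differed by -0.65 ± 0.11. Ldha, lactate dehydrogenase, differed by -0.64 ± 0.10, but by -0.26 under quantile normalization (adjusted p = 0.0947). Both the enzyme that branches glycogen, Gbe1 (-1.13 ± 0.16), and liver glycogen phosphorylase, Pygl (-0.80 ± 0.11), were lower at P0, as was Gys1.

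Pck1, the cytosolic enzyme that commits carbon to glucose synthesis, rose most in that pathway. Its levels were 4.19, 3.90 and 4.59 at E19.5 and 7.51, 7.76, 7.64 and 7.60 at P0. The 4 newborn livers lay close together, and the rise was 10.6-fold (difference 3.40 ± 0.19, adjusted p = 5.86e-07, probe at chr2:172984307-172984366). G6pc, which releases free glucose, had 5.57, 5.61 and 5.61 at E19.5 and 7.31, 7.30, 7.29 and 7.03 at P0 (3.11-fold, adjusted p = 0.000283). Got1, an aspartate aminotransferase, rose by 2.18 ± 0.26 and Sds, the serine dehydratase, by 2.20 ± 0.36; a second kept probe of Sds differed by -0.99. With Gpt, the alanine aminotransferase (1.43), these were the 5 of 14 gluconeogenic genes that passed, all higher, and the list's median was 0.30. Ppargc1a, a coactivator of the pathway, differed by 0.34 ± 0.19 (adjusted p = 0.226), and its groups overlapped.

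In the 250 bases before the Pck1 start (RefSeq, GRCm38.p6), the half-site ACGTCA of a cAMP response element was found at 1 position, and it is shown for that reason. It was found in 3 of the 11 gluconeogenic genes with a promoter in the table, against 1305 of the 12877 tested genes with a promoter. The stretch is chr2:173152923-173153072 on the plus strand, with the half-site in capitals.
Pck1: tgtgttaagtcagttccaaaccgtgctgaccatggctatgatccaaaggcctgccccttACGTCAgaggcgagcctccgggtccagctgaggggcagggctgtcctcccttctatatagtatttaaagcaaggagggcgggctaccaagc

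Genes of fatty acid use that passed were all higher at P0. Of 25 PPARA targets and peroxisomal genes, 17 were higher and none lower, with a median of 0.93; within slide 2, 11 were higher with a median of 0.90. Of 18 genes of mitochondrial beta-oxidation, 6 were higher and none lower, with a median of 0.21; within slide 2, 2 were higher with a median of 0.09. Cpt1a, which lets long-chain fatty acids into mitochondria, had 4.23, 4.30 and 4.49 at E19.5 and 5.80, 5.89, 6.09 and 6.29 at P0. All newborn values lay above the fetal ones (3.20-fold, difference 1.68 ± 0.14, adjusted p = 1.33e-05, probe at chr19:3385374-3385433). Slc25a20, the carnitine carrier that acts after Cpt1a, rose from 0.82, 0.80 and 0.81 to 1.81, 2.03, 2.75 and 2.58 (adjusted p = 0.00107). Etfdh, which passes the electrons of beta-oxidation to ubiquinone, rose by 1.03 ± 0.19, and Eci2, an enoyl-CoA isomerase, by 0.73 ± 0.11. The remaining 2 of the 6 were Cpt2 and Acadl.

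Cidec, a protein of the lipid droplet surface, was at -5.32, -4.12 and -4.51 at E19.5, above background on none of the 3 arrays. At P0 it was at -0.24, 1.16, 1.05 and 0.98, above background on all 4. On this probe it was at least 37.95-fold higher at P0 (adjusted p = 4.67e-05, chr6:113374630-113374689), while a second kept probe of Cidec differed by 3.41. Acot2, a mitochondrial acyl-CoA thioesterase, rose from -3.06, -3.11 and -3.00 to -1.37, -0.65, 0.47 and 0.05 (6.42-fold, adjusted p = 0.000214). Cd36, the fatty acid receptor, rose by 0.89 ± 0.12, and Angptl4, a secreted inhibitor of lipoprotein lipase, by 0.79 ± 0.11. Mgll, the monoglyceride lipase, rose by 0.75 ± 0.10 on its brightest probe, while the 4 kept probes of that gene ranged from -0.67 to 0.75.

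Among related secreted proteins, Gm6484 (current symbol Angptl8), a feeding-induced inhibitor of lipoprotein lipase, moved opposite to Angptl4. It read 6.05, 6.27 and 6.24 at E19.5 and 3.14, 3.67, 3.06 and 2.97 at P0, a 7.87-fold fall (adjusted p = 2.08e-06). Apoa5, an apolipoprotein that lowers plasma triglyceride, rose from a mean of 1.67 to 3.15, 3.31, 3.27 and 3.46 (adjusted p = 0.00327). Fgf21, a fasting hormone under PPARA, had -2.87, -2.47 and -1.65 at E19.5 and -1.25, -0.37, 0.19 and -1.12 at P0; its difference of 1.69 ± 1.01 did not pass (adjusted p = 0.255).

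The subunits of oxidative phosphorylation had a median of 0.19, with 4 of 30 higher (Ndufb5, Ndufs1, Cyc1 and Cycs) and none lower, beside the 8.35% of all genes tested that were higher. None of the 4 was higher by limma without E19.5 array 1, on slide 2 (median 0.01) or with slide as a fixed block, and 1 was higher without E19.5 array 2 or 3 or P0 array 3 or 4. With normexp and the 75th percentile 13 were higher.

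**Figure D2:**
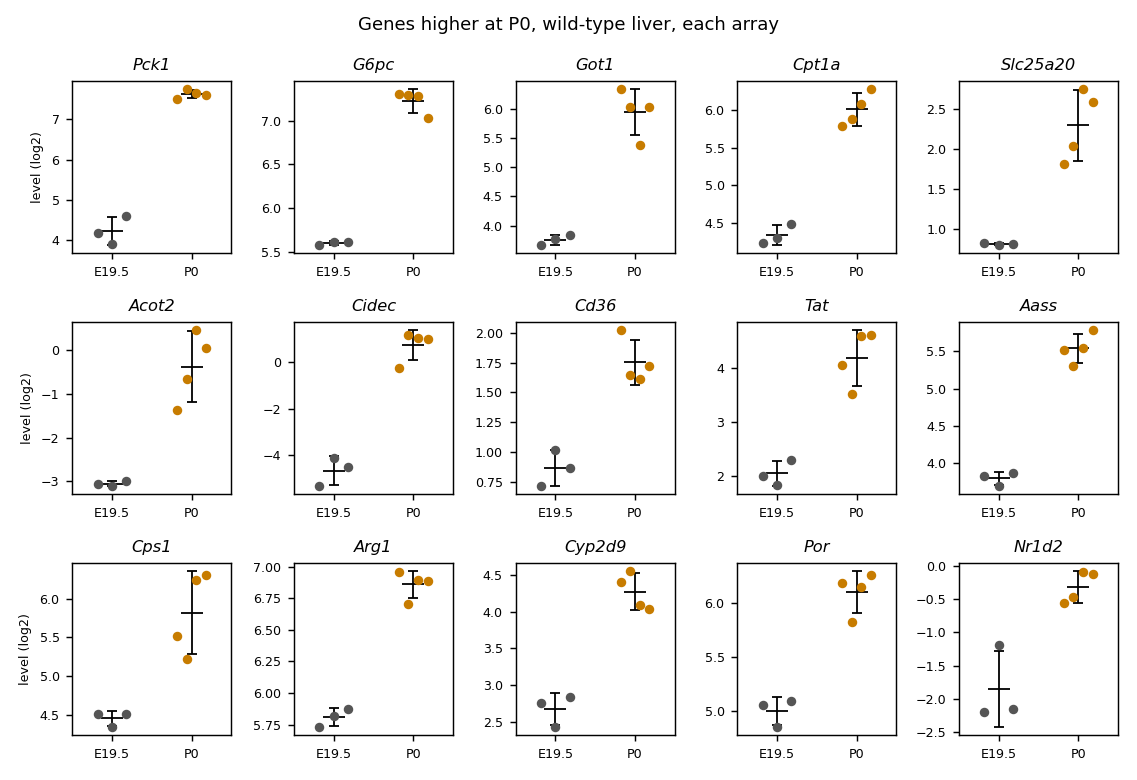
Level (log2, relative to the 75th percentile of the array) of 15 genes higher at P0 on each wild-type array; grey points are the 3 E19.5 livers, orange points the 4 P0 livers in array order, and bars give the mean and SD. The genes shown were picked among those that passed, and their groups do not overlap, as in 4046 of the 4301 that passed. The P0 points of Pck1 and G6pc lie close together while those of Acot2 and Cps1 spread.

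Part of the enzymes that break down amino acids and dispose of their nitrogen rose at P0. Of 32 genes of amino acid catabolism, 15 were higher and 1 (Haao) lower, the last not without E19.5 array 3, with a median of 0.71; within slide 2, 4 were higher, with a median of 0.43. Of 8 urea cycle genes, 5 were higher and 1 (Otc) lower, with a median of 0.79 that became -0.22 with brightness as a covariate. On slide 2, and without P0 arrays 3 and 4, 2 urea cycle genes were higher; Otc did not pass without any 1 of the E19.5 arrays or P0 arrays 1, 2 or 3. Aass, the first enzyme of lysine breakdown, had 3.83, 3.70 and 3.87 at E19.5 and 5.52, 5.30, 5.54 and 5.79 at P0 (3.34-fold, adjusted p = 8.31e-05). Mat1a, which makes S-adenosylmethionine in the adult liver, rose from 5.20, 4.92 and 5.19 to 6.83, 6.70, 6.61 and 6.72 (adjusted p = 9.35e-05). Tat, the tyrosine aminotransferase long used as a marker of birth, rose from 2.01, 1.83 and 2.30 to 4.04, 3.52, 4.58 and 4.61 (4.40-fold, adjusted p = 0.00166). In each of these 3 genes all newborn values lay above all fetal values. Sdsl, a serine dehydratase-like enzyme, rose by 1.32 ± 0.19, and Tdo2, which opens the tryptophan ring, by 2.19 ± 0.35. Tdo2 was above background on 2 of 3 arrays at E19.5 and on 4 of 4 at P0, so its fetal level lay near the background. On slide 2, Tat (1.71, adjusted p = 0.113) and Tdo2 (1.78, adjusted p = 0.0838) did not pass by limma.

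Arg1, which releases urea, rose from 5.73, 5.82 and 5.87 to 6.96, 6.71, 6.89 and 6.88 (2.08-fold, adjusted p = 2.54e-05). Cps1, which brings ammonia into the cycle, read 4.51, 4.34 and 4.51 at E19.5 and 5.51, 5.22, 6.24 and 6.31 at P0. The rise of Cps1 was 1.36 ± 0.32 (adjusted p = 0.0107) and was larger on P0 arrays 3 and 4; without them it was 0.91 (adjusted p = 0.111). Asl, argininosuccinate lyase, rose by 1.39 ± 0.19, and by 1.12 on slide 2, which did not pass by limma (adjusted p = 0.0725). Slc25a15, the mitochondrial ornithine carrier, rose by 1.15 ± 0.26, and by 0.83 without P0 arrays 3 and 4 (adjusted p = 0.0857), and did not pass with slide as a fixed block (1.00, adjusted p = 0.0546). The fifth member higher was Slc25a13.

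**Figure D3:**
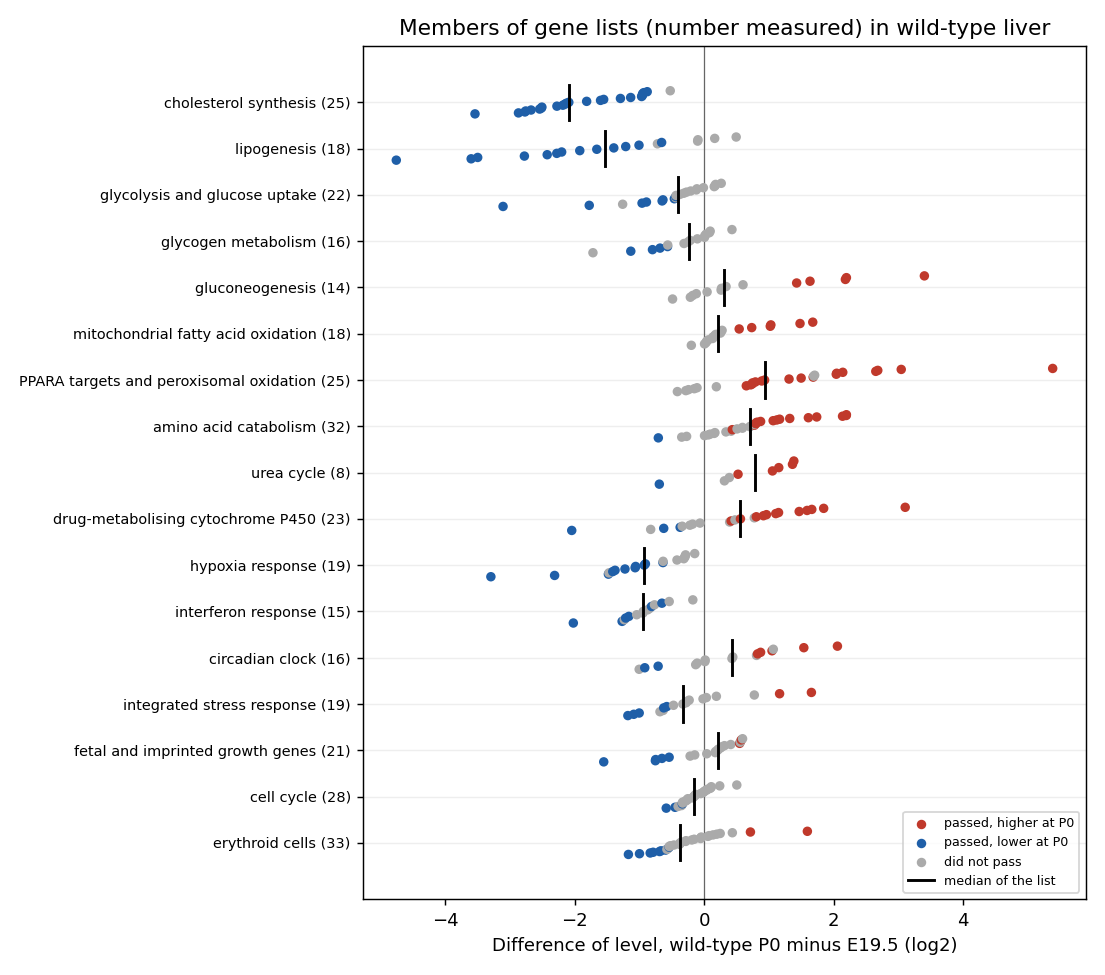
Difference of level (log2, wild-type P0 minus E19.5) of each measured member of 17 gene lists; red and blue points passed the adjusted p of 0.05 as higher or lower at P0, grey points did not, and the black bar is the median of the list. Cholesterol synthesis (median -2.09), lipogenesis and the hypoxia response lie to the left, PPARA targets (median 0.93), amino acid catabolism and the urea cycle to the right.

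Most measured genes of the hypoxia response were lower in the newborn. Of 19 measured members, 11 were lower and none higher, with a median of -0.93; on slide 2 alone the median was -0.73 with 4 members lower. Pfkfb3, which makes the activator of phosphofructokinase, had 1.66, 1.65 and 1.63 at E19.5 and 0.50, 0.28, 0.14 and 0.03 at P0 (difference -1.41 ± 0.11, adjusted p = 5.87e-06, probe at chr2:11393453-11393512). Ankrd37, a small ankyrin-repeat protein, fell from 1.04, 0.64 and 1.12 to -0.93, -1.03, -1.61 and -1.95 (4.97-fold, adjusted p = 0.000224). P4ha1, a collagen prolyl hydroxylase, differed by -1.38 ± 0.19, and Ndrg1, a stress-induced differentiation protein, by -1.48 ± 0.22. In all 4 genes the groups were apart. The other 8 did not pass, and the differences of the 19 members ran from -3.30 to -0.15, with none above 0. Vegfa, the vascular growth factor, was among those 8 and lay at the upper end (-0.15).

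RefSeq promoters were found for 17 of these 19 genes, and the core ACGTG of a hypoxia response element was found on either strand in 12 of them, against 22.8% of tested genes with a promoter; the same letters form part of the E-box CACGTG. The stretches of P4ha1 (chr10:59323146-59323295, plus strand of GRCm38.p6) and Ankrd37 (chr8:45999851-46000000, minus strand) are shown because their match lies close to the start. Capitals mark ACGTG or its complement CACGT.
P4ha1: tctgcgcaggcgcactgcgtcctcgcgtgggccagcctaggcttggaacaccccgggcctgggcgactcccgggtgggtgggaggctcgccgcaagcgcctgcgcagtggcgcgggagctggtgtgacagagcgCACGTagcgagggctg
Ankrd37: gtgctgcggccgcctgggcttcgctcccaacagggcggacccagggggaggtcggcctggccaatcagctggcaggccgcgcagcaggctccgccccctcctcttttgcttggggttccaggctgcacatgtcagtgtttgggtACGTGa

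Fam132b (current symbol Erfe) encodes erythroferrone, the hormone by which red cell precursors lower hepcidin. It read -0.63, -0.55 and -0.56 at E19.5 and -2.93, -3.37, -4.32 and -4.87 at P0, a 9.80-fold fall (adjusted p = 9.92e-05). Hamp, which encodes hepcidin, had 2.94, 1.95 and 2.69 at E19.5 and 4.18, 2.73, 4.25 and 5.51 at P0. The 2 groups of Hamp overlapped through P0 array 2, and its difference of 1.64 ± 0.56 did not pass (adjusted p = 0.0558).

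Genes for drug and steroid metabolism passed in both directions. Of 23 measured P450 genes, their reductase and their receptors, 12 were higher and 3 lower (Cyp2c70, Cyp2c29 and Cyp2d26), with a median of 0.56. On slide 2, 3 were higher and 2 lower (median 0.40), and with slide as a fixed block 8 were higher and 0 lower by limma. Por, the reductase that feeds electrons to P450 enzymes, rose from 5.06, 4.85 and 5.09 to 6.18, 5.82, 6.15 and 6.26 (2.15-fold, adjusted p = 0.000291). Cyp2d9, a steroid hydroxylase, rose from 2.76, 2.43 and 2.84 to 4.39, 4.55, 4.09 and 4.03 (adjusted p = 0.000162). The groups were apart in both, and Nr1i2, which encodes the xenobiotic receptor PXR, rose by 0.81 ± 0.14. Cyp2e1, an ethanol-metabolising P450, rose by 1.15 ± 0.20 (adjusted p = 0.00204), and by 0.90 on slide 2, which did not pass (adjusted p = 0.0847). Cyp1a2, a P450 of aromatic amines, was above background on 1 of 3 arrays at E19.5 and on 4 of 4 at P0, where it read -3.31, -3.06, -0.47 and -1.42; its rise was 3.11 ± 0.72 (adjusted p = 0.01), and 1.98 without P0 arrays 3 and 4, which did not pass (adjusted p = 0.0952), nor did it with slide as a fixed block (adjusted p = 0.0612).

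Sulphotransferases were among the 12 largest rises. Sult1e1, the estrogen sulphotransferase, was above background on 0 of 3 fetal and 4 of 4 newborn arrays and was at least 3.241-fold higher at P0, but did not pass with normexp and the 75th percentile (adjusted p = 0.226) or normexp and quantile (adjusted p = 0.0601). Sult2a6, which sulphates bile acids and steroids, read -0.06, -1.25 and -0.61 at E19.5 and 0.36, 1.84, 4.12 and 4.19 at P0. Sult2a4, a close paralog whose probe may share transcripts with it, read -2.18, -0.62, 2.63 and 2.66 at P0. In both the 2 arrays of slide 3 were the high pair, and without them the rises were 1.74 (adjusted p = 0.127) and 1.93 (adjusted p = 0.131). Neither passed without E19.5 array 2 (2.96, adjusted p = 0.0603 for Sult2a6; 3.59, adjusted p = 0.0663 for Sult2a4), nor Sult2a4 without E19.5 array 3 (3.89, adjusted p = 0.0524). Gsta3, a glutathione transferase, went the other way, by -1.06 ± 0.13 (adjusted p = 0.000214).

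For bile acids, 4 of 17 genes were higher and 1 (Slc10a1) lower, with a median of 0.28, beside 8.35% higher and 10.7% lower over all genes tested. Without E19.5 array 2, and on slide 2, 1 was higher. Slc10a1, the bile acid uptake carrier, averaged 18.6 in log2 signal, and none of the genes was lower under quantile normalization, with normexp and quantile or in the authors' deposited table. Cyp7a1, the rate-limiting enzyme of bile acid synthesis, read 1.84, 2.29 and 2.14 at E19.5 and 3.34, 2.57, 2.72 and 2.26 at P0, and its difference of 0.63 ± 0.36 did not pass (adjusted p = 0.233). Nr0b2, the corepressor SHP that is induced by bile acids, rose from -1.66, -2.67 and -1.46 to -0.52, 0.49, -0.25 and -0.20 (adjusted p = 0.0101), but not past the threshold without E19.5 array 2 (1.44, adjusted p = 0.0534). Slco1a4, an organic anion carrier, was above background on 1 of 3 arrays at E19.5 and 4 of 4 at P0; its difference of 1.26 ± 0.27 passed (adjusted p = 0.00677), but with normexp and the 75th percentile it was -0.22. Abcb4 and Cyp27a1 made up the 4.

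The most abundant secreted proteins gave lower values at P0 that depended on the scaling. Of 17 plasma carrier genes 10 were lower (median -0.53), but 3 under quantile normalization (median -0.02), and of 23 coagulation genes 10 were lower and 1 higher (Pros1), but 3 lower under quantile normalization and 6 without E19.5 array 2 or 3. Alb (albumin) differed by -0.72 ± 0.09, Afp (alpha-fetoprotein) by -0.75 ± 0.09 and Trf (transferrin) by -0.81 ± 0.10, against 0.06, -0.04 and -0.07 under quantile normalization, where none passed. Their signals are among the brightest. For 51 genes whose log2 signal averaged above 18, the signal rose with array brightness at a median slope of 0.21. For genes between 8 and 16 the slope was 0.97 to 1.01. These slopes were taken over the wild-type and knockout arrays together. Brightness varied within each age, but every P0 array was still brighter than every E19.5 array. The dimmest P0 array, knockout P0 array 2, had a 75th percentile of 9.08. The brightest E19.5 array, knockout E19.5 array 3, had 9.05. The slopes pool both ages, so they cannot tell brightness from age. The 51 genes had a median difference of -0.75, against -0.03 under quantile normalization. Ttr (transthyretin) differed by -0.60 ± 0.09. All 10 hepatocyte markers were above background on all 7 arrays.

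Among genes of fetal growth, Grb10, an imprinted inhibitor of insulin and IGF signalling, fell from 3.88, 3.94 and 3.77 to 2.35, 2.38, 2.36 and 2.14 (2.93-fold, adjusted p = 8.31e-05), with the groups well apart. The list of 21 fetal and imprinted genes had 5 lower (Grb10, Afp, Cdkn1c, H19 and Meg3) and 2 higher (Igf2bp3 and Peg3), with a median of 0.21. Over all genes tested 10.7% were lower and 8.35% higher, so the count higher is near the background share. The 5 lower became 1 under quantile normalization and in the authors' deposited table, 2 with normexp and quantile, and 3 without E19.5 array 1 or 2 or P0 array 1, 3 or 4. None was higher by limma without E19.5 array 1 or 3. H19, an imprinted noncoding RNA, differed by -0.65 ± 0.13 but by 0.07 under quantile normalization, and its 7 kept probes ranged from -0.68 to 0.16. Igf2, the fetal growth factor beside it, differed by 0.41 ± 0.19 (adjusted p = 0.152), and Igf1 by -0.11 ± 0.20 (adjusted p = 0.738). Prlr, the prolactin receptor, fell from 2.23, 2.38 and 2.32 to 1.07, 0.63, 0.30 and -0.40 (adjusted p = 0.00399). Igfbp3, the main carrier of circulating IGF, rose by 1.02 ± 0.19. Igfbp1, a carrier repressed by insulin, differed by -0.42 ± 0.11 (adjusted p = 0.0136) and by 0.23 under quantile normalization, and did not pass without E19.5 array 1 (-0.39, adjusted p = 0.0567) or array 3 (-0.41, adjusted p = 0.0513), or with slide as a fixed block (-0.29, adjusted p = 0.0813). Mirg, a host transcript of the miR-379/miR-410 cluster, differed by -0.69 ± 0.26 (adjusted p = 0.0769). Mki67, a proliferation marker, differed by -0.35 ± 0.17 (adjusted p = 0.161), and 3 of 28 cell cycle genes were lower (E2f1, Mcm6 and Bub1), none higher, which is the background share of 10.7%. That count was 8 without P0 array 1, 1 without E19.5 array 1, and 0 by limma without E19.5 array 2 or 3 or P0 array 3 or 4.

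Of 16 genes of the circadian clock and its output, 5 were higher and 2 lower (Per1 and Bhlhe40), with a median of 0.44. The shares over all genes tested were 8.35% and 10.7%. The 5 became 2 without E19.5 array 1 or 3 or with slide as a fixed block, 3 without E19.5 array 2 or P0 array 1, and 1 on slide 2. The 2 lower became 0 without E19.5 array 2 and 1 without E19.5 array 1 or 3. Nr1d2, a repressor in the clock, rose from -2.21, -1.19 and -2.16 to -0.56, -0.47, -0.09 and -0.13 (adjusted p = 0.00273). Dbp, an output factor of the clock, rose from -0.06, -0.14 and 0.00 to 0.73, 1.46, 0.66 and 1.07 (adjusted p = 0.0102). Nr1d1, the paralog of Nr1d2 and named after its value was seen, read -3.27, -3.77 and -3.48 at E19.5 and -0.90, 0.09, -2.31 and -2.67 at P0; P0 arrays 1 and 2 were the high pair. Its rise of 2.06 ± 0.60 (adjusted p = 0.0296) did not pass without any 1 of the E19.5 arrays (2.18, 1.93 and 2.07, adjusted p = 0.0625, 0.0927 and 0.0744), nor without P0 array 1 (1.88, adjusted p = 0.0619) or 2 (1.55, adjusted p = 0.0538), nor with slide as a fixed block (2.42, adjusted p = 0.0503). Hlf and Clock were the other members higher.

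Stress genes passed in both directions, beside 8.35% of all genes tested that were higher and 10.7% that were lower. Gadd45b, a growth arrest gene, rose from a mean of 1.84 to 3.06, 3.05, 3.19 and 3.46 (2.54-fold, adjusted p = 0.000151). Of 19 genes of the integrated stress response, 5 were lower (Nupr1, Mthfd2, Psat1, Psph and Atf4) and 2 higher (Cth and Gdf15), with a median of -0.33. Without P0 array 1, 8 were lower, without E19.5 array 1 or 3, 1 was higher, and on slide 2 none passed by limma. Nupr1, a stress-induced chromatin protein, differed by -1.18 ± 0.25 and Gdf15, a stress hormone, by 1.66 ± 0.41; Gdf15 did not pass without E19.5 array 1 (1.52, adjusted p = 0.0528). Among 19 glucocorticoid and cAMP genes 3 were higher (Tat, Dusp1 and Cebpb) and 3 lower (Mt1, Per1 and Igfbp1); without E19.5 array 1 or 3 the count lower was 1. Dusp1, a phosphatase of MAP kinases, rose by 0.63 ± 0.14. Mt1, a metal-binding protein, was at 9.15, 9.01 and 9.01 at E19.5 and at 8.19, 7.14, 8.16 and 8.30 at P0 (difference -1.11 ± 0.25, adjusted p = 0.00811).

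Interferon-stimulated genes split the newborn livers. Of 15 measured, 6 were lower and none higher, with a median of -0.94. The 6 became 12 without P0 array 1, 3 without E19.5 array 1 or P0 array 3, and 2 without E19.5 array 3 or P0 array 4. Isg15, a ubiquitin-like protein induced by interferon, read 7.19, 7.26 and 7.28 at E19.5 and 6.70, 5.84, 4.11 and 4.22 at P0. The median level of the list was 1.54, 1.22 and 1.56 on the E19.5 arrays, 1.56 and 1.20 on P0 arrays 1 and 2, and -0.16 and 0.04 on P0 arrays 3 and 4. Without those 2 arrays the median difference was -0.34 with 2 members lower, and within slide 2 it was -0.32 with 0 lower by limma. Usp18, which removes Isg15 from proteins, differed by -1.27 ± 0.34 (adjusted p = 0.0184), and by -0.52 without P0 arrays 3 and 4 (adjusted p = 0.0552). It also failed to pass without E19.5 array 1 (-1.24, adjusted p = 0.0594) or 3 (-1.22, adjusted p = 0.0617) and without P0 array 4 (-1.05, adjusted p = 0.0516), and with slide as a fixed block (-0.86, adjusted p = 0.0815). Irf1, an interferon regulatory factor, fell by 0.65 ± 0.13 on values that did not overlap. P0 arrays 3 and 4 shared slide 3 with knockout P0 arrays 3, 4 and 5, on which the list's median level was 1.16, 1.33 and 1.35. On knockout P0 arrays 1 and 2, on slide 2, it was 1.51 and 1.25. With slide as a fixed block the wild-type median difference of the list was -0.68, with 2 members lower by limma. The cause of the split was not tested.

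The interferon-stimulated response element, searched on both strands as GAAA, any 2 bases and GAAAC, was found in 4 of the 11 listed genes with a RefSeq promoter, against 0.862% of tested genes. Isg15 is shown because its window holds 2 overlapping matches, in capitals (chr4:156200819-156200968, minus strand of GRCm38.p6).
Isg15: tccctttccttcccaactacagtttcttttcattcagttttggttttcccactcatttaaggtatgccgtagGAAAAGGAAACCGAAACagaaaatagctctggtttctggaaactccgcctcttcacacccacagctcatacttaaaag

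Of the lists of blood-forming cells, that of 33 erythroid genes had 8 lower and 2 higher, with a median of -0.37. Among all genes tested 10.7% were lower and 8.35% higher. In whole liver, fewer cells of a type and less RNA per cell cannot be told apart. Array medians of the list at P0 were 4.66, 4.37, 4.11 and 3.81, and without P0 arrays 3 and 4 its median difference was -0.01. The 8 lower became 15 without P0 array 1, 4 without E19.5 array 1 or P0 array 3 or 4, and 3 without E19.5 array 2 or 3 or under quantile normalization. Hbb-bh1, an embryonic beta-type globin, fell from -0.36, -0.34 and -0.15 to -1.12, -1.70, -1.45 and -1.56 (2.25-fold, adjusted p = 0.000467). Car1, a carbonic anhydrase of red cells, rose from 0.64, 0.78 and 0.81 to 1.91, 2.17, 2.75 and 2.51 (3.02-fold, adjusted p = 0.000214). Hbb-b1, an adult beta-globin, differed by -0.83, but by -0.08 under quantile normalization, and globin probes may cross-hybridise. Hba-x, an embryonic alpha-type globin, differed by 0.71 ± 0.23 (adjusted p = 0.0466), which did not pass without any 1 of E19.5 arrays 1, 2 or 3 or P0 arrays 1, 3 or 4 (differences from 0.57 to 0.76, adjusted p from 0.0549 to 0.131), or with slide as a fixed block (adjusted p = 0.078). Hbb-y, another embryonic globin, differed by 0.19 ± 0.25 and did not pass. The median difference was 0.23 for 10 genes of haematopoietic progenitors and -0.34 for 12 genes of B cell progenitors.

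Of 13 genes of stellate cells and mesenchyme 4 were higher (Vim, Pdgfra, Hand2 and Dcn) and none lower, with a median of 0.33, and of 12 endothelial genes 4 were higher (Emcn, Lyve1, Fcgr2b and Tek), with a median of 0.24. The mesenchyme count became 6 without E19.5 array 1, 2 without E19.5 array 2 or 3 or P0 array 4, and 1 on slide 2. For endothelium it became 1 without E19.5 array 1, 2 without E19.5 array 3, and 0 by limma on slide 2. Vim, an intermediate filament of mesenchymal cells, rose from 4.11, 3.97 and 3.97 to 4.73, 4.31, 4.83 and 4.92 (adjusted p = 0.00367). Pdgfra, a growth factor receptor of mesenchyme, rose by 0.67 ± 0.13. The background for the counts here was 8.35% of all genes tested higher and 10.7% lower. Macrophage genes fell in 3 of 13 (Emr1, with the current symbol Adgre1, Clec4f and Csf1r) and rose in 1 (Mrc1); without E19.5 array 2 none of them was lower by limma, without E19.5 array 1 or 3 or P0 array 3, 1 was, and Mrc1 did not pass without E19.5 array 1 or 3 or P0 array 3 or 4.

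Pancreatic digestive enzymes were among the 12 largest rises, and their values differed between the P0 arrays. Try4, a trypsin, read -6.86, -5.62 and -6.71 at E19.5, where it was above background on 0 of 3 arrays, and -2.85, -1.47, 2.32 and 3.94 at P0. The values were thus highest on P0 arrays 3 and 4. Try5, its paralog, gave -2.33, -0.92, 2.92 and 4.70 at P0, and Cpb1, a carboxypeptidase, -4.29, -2.49, 0.94 and 2.76. By the bound above, Try4 was at least 34.31-fold, Try5 at least 52.2-fold and Cpb1 at least 14.34-fold higher at P0. Without P0 arrays 3 and 4, Cpb1 did not pass (adjusted p = 0.0526). Reg1, a secreted acinar protein, was above background on 0 of 3 arrays at E19.5 and 3 of 4 at P0, where it read -6.09, -2.11, -0.78 and 1.74, and it was at least 6.982-fold higher. Its call (adjusted p = 0.0378) was lost without any 1 of the 7 arrays other than P0 array 1 (adjusted p from 0.0508 to 0.101) and with slide as a fixed block (adjusted p = 0.12).

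Of 21 measured exocrine pancreas genes, 9 were higher and 1 (Bhlha15) lower. The 9 became 12 without P0 array 1, 5 without P0 array 4, 4 without E19.5 array 1 or 3 or P0 array 3, 3 without E19.5 array 2, and 3 without P0 arrays 3 and 4 together. Their summed linear level was 33.64 to 45.67 times the array's 75th percentile at E19.5, and 44.31, 35.60, 91.59 and 233.1 times it on P0 arrays 1 to 4. All 21 were above background on P0 arrays 3 and 4, and 15 to 19 on the others. The adrenal cortex list had a median level of 2.29 on P0 array 2, against -0.80 to 0.26 on the other 6 arrays, and the skeletal muscle list reached 0.38 on P0 array 4, against -3.97 to -1.17. The part of these tissues in other results was not tested; without P0 arrays 3 and 4, 1896 of the 4301 genes still passed with the same sign.

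**Figure D4:**
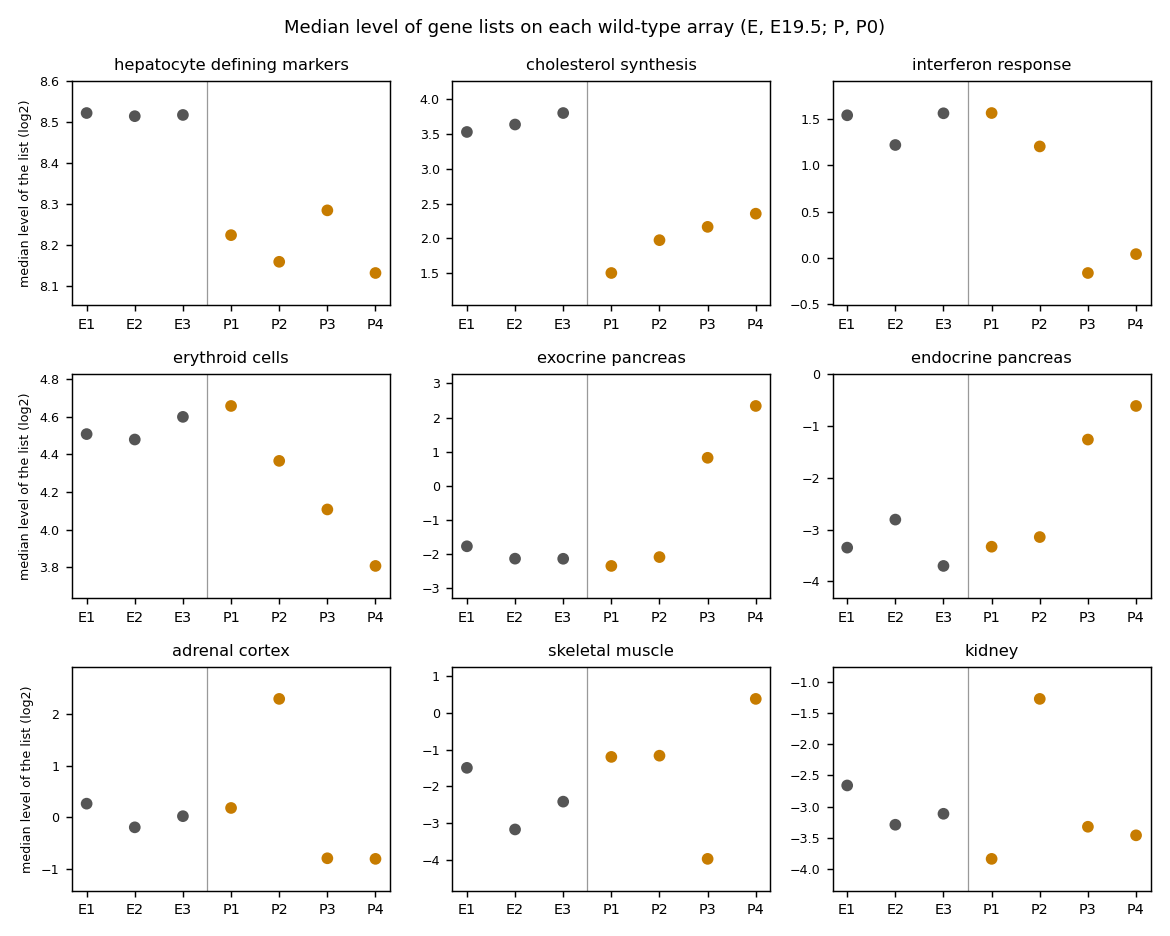
Median level (log2, relative to the 75th percentile of the array) of 9 gene lists on each wild-type array, E1 to E3 at E19.5 (grey) and P1 to P4 at P0 (orange). Cholesterol synthesis is lower on all P0 arrays, and the interferon list is lowest on P3 and P4 (-0.16 and 0.04). The exocrine and endocrine pancreas lists have their highest medians on P3 and P4, and the adrenal cortex and kidney lists on P2. The summed linear level of the 4 endocrine genes was highest on P2, at 14.45, against 1.981 and 3.866 on P3 and P4.

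Other genes with large changes belonged to no list. Slc25a34, a mitochondrial carrier, was above background on 0 of 3 fetal and 4 of 4 newborn arrays, at least 13.96-fold higher, with P0 values of -1.74, -0.62, -0.06 and -0.77. Syt10, a synaptotagmin, read -3.83, -4.42 and -0.32 at E19.5, where it was above background on 2 of 3 arrays, and 2.00, -0.30, 2.94 and 1.86 at P0. Its groups all but touched, and its call (adjusted p = 0.0177) was lost without E19.5 array 1 (3.99, adjusted p = 0.0729) or 2 (3.70, adjusted p = 0.0822) or P0 array 3 (4.04, adjusted p = 0.0507), and with slide as a fixed block (3.32, adjusted p = 0.113). Vsig8, an immunoglobulin-domain protein, fell from 0.51, 0.54 and 0.66 to -2.62, -2.85, -4.23 and -4.32 (16.9-fold, adjusted p = 0.000283). Serpina4-ps1, a serpin pseudogene, fell by 3.40 ± 0.60, with close paralogs that its probe may also bind.

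The same change in knockout livers passed for 4523 genes. Of the wild-type calls, 52.4% passed in the knockout in the same direction, which is 49.8% of the knockout calls, and 2 genes passed in opposite directions. In the test of the difference between the genotypes 0 of 22638 genes passed with limma, and 2124 had an unadjusted p under 0.05. Fasn differed by -3.29 and Pck1 by 3.11 in the knockout. Cyp2e1 differed by -0.04 in the knockout against 1.15 in the wild type, a difference of -1.19 ± 0.28 that did not pass (adjusted p = 0.217). Nr0b2 differed by -0.37 against 1.81 (difference -2.19 ± 0.59, adjusted p = 0.286), and Sds by 4.86 against 2.20 (difference 2.66 ± 0.50, adjusted p = 0.159).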

How the data were processed

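Per the file headers, the deposited array files hold fluorescence intensity per spot from Agilent Feature Extraction 10.10, and the processed signal intensity had been corrected for background by the authors' software with no step between arrays. The authors also deposited a series-wide set of log2 values, for which the submitters' processing notes name limma; how its background was treated is not stated. Here each array was set on its own 75th percentile of log2 processed signal (control and outlier spots left out), with the mean taken over repeated spots. Probes were kept if well above background on 3 or more arrays of some group, and each gene name was represented by its brightest probe. limma 3.58.1 (R 4.3.3, with the package data.table at version 1.17.8) was fitted with 4 group means over all 15 arrays, with Benjamini-Hochberg adjustment over 22638 genes, and tested on simulated data. Probe positions are on mm9; gene structure around them was not used here. Named genes were the 12 largest rises and falls that passed without overlap, up to 4 members of each of 63 lists by adjusted p, and genes set by hand; some are not reported here. Members and lists were chosen with earlier results of these data known. The number of arrays limits the precision.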

Additional observations from a re-analysis of the deposited data

Results flagged for a closer look

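In the 4 P0 livers, 104 quantities were searched for a sample far from the rest, and 5 were found, while chance gives about 5%. G6pc was at 7.03 on P0 array 4, against 7.29 to 7.31 on the others. Cidec was at -0.24 on P0 array 1, against 0.98 to 1.16. Lss was at 0.48 on P0 array 4, against 0.80 to 0.85, and Grb10 at 2.14 on the same array, against 2.35 to 2.38. Mt1 was at 7.14 on P0 array 2, against 8.16 to 8.30. In these 5 genes the outlying value lay on the same side of every E19.5 value as the other P0 values.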

How the results depend on the processing

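Of 94 named genes that passed, 46 kept their direction and side of the threshold under each of the 20 alternatives other than the brightness covariate, and 10 lost their call when 1 array was left out. On slide 2 alone, which held 4 of the 7 arrays, 37 of them lost it, with wild-type arrays only 9 and with slide as a fixed block 8. The rule that named genes took large changes and small adjusted p from these same data. Of all 4301 genes that passed, 2609, 2640 and 2714 kept their call without E19.5 array 1, 2 or 3. The counts kept among the 94 named genes were 87, 87 and 88. With brightness as a covariate the median turned for several lists, to -0.31 for amino acid catabolism, -0.29 for beta-oxidation, -0.06 for P450 genes, -1.62 for exocrine pancreas, 0.99 for the interferon list and 0.40 for erythroid genes. The count of 4301 genes (1890 higher, 2411 lower) became 10146 (7739 lower, 23.7% higher) with normexp and the 75th percentile, which moved the median of all genes to -0.16. It had 4297 lower (28.8% higher, median -0.12) with no filter on dim probes, 2554 (1106 higher, 1448 lower) with wild-type arrays only, 2657 (1240 and 1417) with slide as a fixed block, 1169 (597 and 572) on slide 2 and 2288 (1166 and 1122) without P0 arrays 3 and 4. With brightness as a covariate it was 0 (0 higher, 0 lower). Leaving out 1 array gave 2766 to 4932 genes, 1155 to 2053 higher and 1520 to 2879 lower. The genotype difference, 0 genes, was passed by 5 with normexp and the 75th percentile, 1 with normexp and quantile, 1 in the authors' deposited table and 2 without P0 arrays 3 and 4, and by 0 to 3 with 1 array left out. The replicate number as a block gave 3882 genes. Same-numbered E19.5 and P0 samples deviated together at r = -0.16, -0.19 and 0.09, against -0.07 to 0.23 for samples with unlike numbers. So few values cannot show whether the numbers mark pairs. The cause of these shifts was not tested.

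Signs turned with the brightness covariate for Scd1 (0.43), Thrsp (0.23), Aldoc (0.50), Cps1 (-0.37), Slc25a15 (-0.12), Cyp2e1 (-0.28), Cyp1a2 (-1.43), Sult2a4 (-2.27), Sult2a6 (-0.99), Igfbp1 (0.10), Isg15 (1.04), Usp18 (0.83), Pdgfra (-0.0068), Cpb1 (-0.26), Syt10 (-4.33) and Serpina4-ps1 (0.17). They turned for Alb (0.0623), H19 (0.0728) and Igfbp1 (0.23) under quantile normalization, for H19 (0.12) and Igfbp1 (0.24) with normexp and quantile, for H19 (0.15) and Igfbp1 (0.26) in the authors' deposited table, and for Slco1a4 (-0.22) with normexp and the 75th percentile.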

Other observations

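Of 17 genes of autophagy and lysosomes 4 were higher at P0 (Ctsl, a lysosomal protease, by 1.14, and Map1lc3a, Becn1 and Atg7) and 1 was lower (Ctsd); without E19.5 array 1 the counts were 2 and 0, and Ctsd did not pass without E19.5 array 3 or P0 array 3 either. Of 11 heat shock genes 2 were higher, Hspb1 by 1.00 and Hspa1a by 0.99. Of 16 chaperones of the endoplasmic reticulum 1 was lower (Dnajc3) and none higher. Over all genes tested 8.35% were higher and 10.7% lower, so counts of 1 lower in 16 or 17 genes are not above the background. Without E19.5 array 2 or 3 none of the heat shock genes was higher by limma, and 1 was without P0 array 1 or 4, while Dnajc3 did not pass without E19.5 array 1 or 2 or P0 array 1. Of 11 genes known to respond to thyroid hormone, Dio1, the liver deiodinase, and Gpd2, the mitochondrial glycerol phosphate dehydrogenase, were higher by 1.31 and 1.46, Dio2 was higher by 0.62 and Thrsp was lower. Granulocyte genes were lower in 3 of 15 (Mmp8, S100a9 and S100a8), a count that was 1 without E19.5 array 3, and none of 11 megakaryocyte genes passed in the limma fit.

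Of 5 probes for Y-linked genes, 3 were above background on 1 of the 3 E19.5 arrays and on 1 of the 4 P0 arrays, and 0 on the other 5 arrays.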
